A study of Mus musculus with 36 samples.

Results

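The liver transcriptome of calorie-restricted mice (CR) was compared with that of mice fed ad libitum (AL), gene by gene and transcript by transcript. These 12 libraries, 6 per diet, are those the labels give as liver of CR or AL mice, out of 36 libraries in the series, which also holds inguinal fat (iWAT) and a time-restricted group without calorie restriction (TR). All mice were C57BL/6J, with no transgene or other genotype in the labels, and had been on their diet for 16 weeks. No source used here gives the sex, age, degree of restriction, feeding times or hour of sampling, so effects of the diet and of the time since the last meal cannot be told apart. The labels number the animals and give no animal of one diet the number of an animal of the other. The study asked whether fasting on its own gives the transcriptional response of a CR diet, and the CR against AL comparison is the response that this question takes as its reference.

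The liver stores glucose as glycogen after a meal and releases glucose, ketone bodies and lipoproteins between meals, under the control of insulin, glucagon, glucocorticoids and its own clock. It also degrades most amino acids, makes the plasma proteins, bile acids and urea, and clears drugs and steroids. Calorie-restricted mice usually eat their ration in a short time and then fast for the rest of the day, so their livers alternate between strong refeeding and long fasting.

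Each gene is described by the log2 fold change of CR minus AL, the log2 mean CPM (reads scaled to library size and not to gene length, so levels are not compared between genes) and the adjusted p that edgeR gave in the authors' deposited table. A gene is said to rise, fall or be called only where that adjusted p was under 0.05. Values per library are not in these tables, and the depth of the libraries is unknown. Approximate standard errors (SE) were derived by dividing the absolute log2 fold change by the root of the likelihood-ratio statistic, and approximate CPM levels of both diets from the deposited mean and fold. The median approximate SE was 0.153 for genes and 0.400 for transcripts.

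Of 12636 genes tested, 1409 were called, which is 11.2% of all genes, with 731 (5.79%) higher and 678 (5.37%) lower in CR. The median log2 fold change of all genes was -0.0038, so the centre of all genes lay at 0. Most calls were moderate: 151 genes were at least 2-fold higher, 133 at least 2-fold lower, and 671 changed less than 1.5-fold. For 6305 genes the table gave an approximate 95% interval wholly within 0.5 log2 units of 0.

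**Figure D1:**
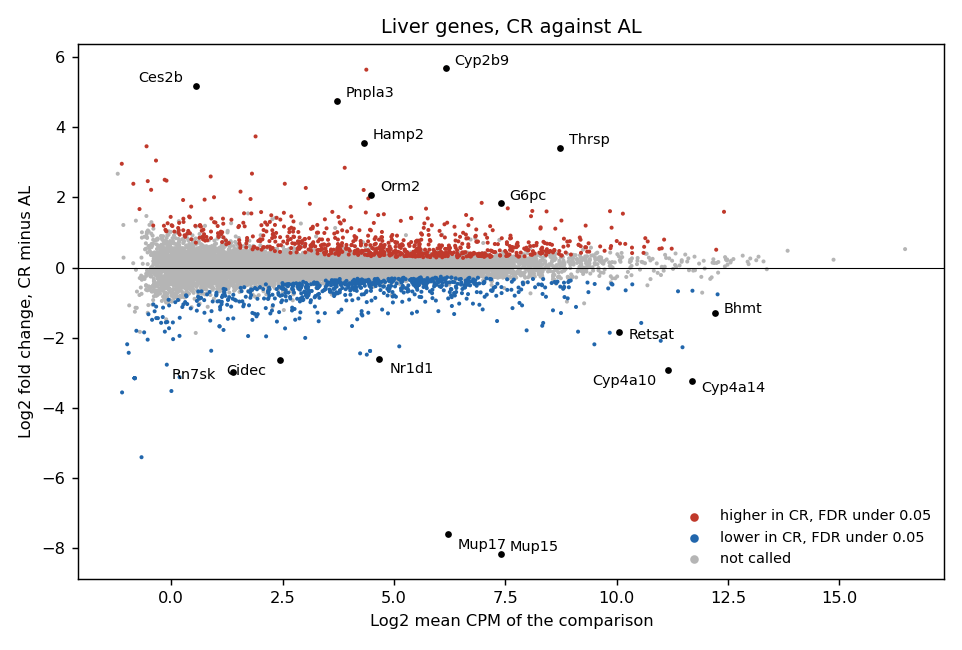
Log2 fold change (CR minus AL) against log2 mean CPM for each of the 12636 liver genes tested. Red points are the 731 genes higher in CR, blue points the 678 lower, grey points were not called, and black points are named genes. The called genes lie on both sides of 0 at every level, and only 6 genes pass 5 log2 units in size.

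All 12 hepatocyte markers were measured, at a log2 mean CPM of 8.6 or more. Ttr and Tat were the hepatocyte markers higher in CR, and the albumin gene Alb had 0.53 (adjusted p = 0.13) by the authors' deposited table. None of 16 Kupffer cell and macrophage markers, 15 endothelial, 9 B cell, 4 T and NK cell or 2 neutrophil markers was called by the authors' edgeR test, with 0, 1, 3, 0 and 0 of them at an unadjusted p under 0.05. Only 4 of 17 T and NK cell and 2 of 10 neutrophil markers were measured, at a log2 mean CPM of at most 0.17 and 0.95. So few and scarce markers cannot tell whether these cells changed. Stromal and blood markers did differ: 5 of 16 stellate cell and fibroblast markers rose (Lum, Col1a2, Col1a1, Col3a1 and Tagln), 2 of 6 cholangiocyte markers (Spp1 and Krt19) and 3 of 5 erythroid genes, all 3 of them globins, with approximate summed levels of 411.2 CPM in AL and 447.6 CPM in CR, 50.9 and 68.8 CPM, and 332 and 570.5 CPM, in that order. The shares called in these 3 sets were 31.25%, 33.3% and 60%, in the same order, beside 11.2% of all genes. The only muscle marker measured, of 10, was not called, and the only pancreas marker, Cela1 of 15, rose by 1.01. Small structured RNAs were lower in CR, with log2 fold changes of -2.99 for Rn7sk and -2.38 for both Rn7s1 and Rn7s2 in the authors' deposited table. The last 2 have identical values, so reads of the 2 copies cannot be told apart. Other entries that were lower were CT010467.1 (-2.28), AY036118 (-2.09) and the gene Lars2 (-2.19) in the authors' deposited table. The part of these differences in the results below was not tested.

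The genes with the highest and lowest log2 fold changes had varied roles. The steroid hydroxylase gene Cyp2b9 (ENSMUSG00000040660, GRCm38 chromosome 7 from 26173411 to 26210661) had the highest log2 fold change by the naming rule, 5.69 (approximate SE 0.73, adjusted p = 1.5e-12), from about 2.72 CPM in AL to 140 CPM in CR in the authors' deposited table. The organic anion transporters Slc22a7 and Slc22a26 rose by 2.21 and 2.39, the second hepcidin gene Hamp2 by 3.55 and the acute phase glycoprotein gene Orm2 by 2.07 in the authors' deposited table. Other genes with the highest changes were the lipogenic genes Pnpla3 (4.76) and Thrsp (3.42), the nicotinic receptor gene Chrna4 (2.85) and the pacemaker channel gene Hcn3 (2.27) by the authors' deposited table. At the other end stood Mup15 (-8.19) and Mup17 (-7.61), whose levels in CR were near 1 CPM, the omega-hydroxylase genes Cyp4a14 (-3.24), Cyp4a10 (-2.94) and Cyp4a31 (-2.45), the lipid droplet gene Cidec (-2.65), the clock genes Nr1d1 (-2.61) and Dbp (-2.49), and Rn7s1 and Rn7s2, in the authors' deposited table. Both Mup genes were at or near 1 CPM in CR, where a fitted fold is imprecise.

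Gene families named by a shared symbol stem were counted without any pathway list. Of 152 families with at least 10 measured genes, the shares called were highest for Mup (14 lower and 1 higher of 19), the acyl-CoA thioesterases Acot (5 higher and 3 lower of 11), the 19S proteasome subunits Psmd (9 lower of 14), the carboxylesterases Ces (7 higher of 14), the hydroxysteroid dehydrogenases Hsd (2 higher and 4 lower of 13) and, with equal shares, the N-acetyltransferases Nat (5 higher of 11) and the guanylate-binding proteins Gbp (5 lower of 11). These shares ran from 78.9% (Mup) to 45.5% (Nat and Gbp), beside 11.2% of all genes. Within Acot, Acot1 (-0.87), Acot2 (-0.84) and Acot12 (-0.45) fell, while Acot11 (1.00), Acot6 (0.86) and Acot3 (0.74) were among those that rose in the authors' deposited table. The rises in Nat were all in the Nat8 group of liver and kidney acetyltransferases, from 1.18 for Nat8f1 to 3.74 for Nat8f7 (about 0.517 CPM in AL and 6.91 CPM in CR) by the authors' deposited table. Mup, Nat8, Ces and Cyp genes lie in clusters of close paralogs that can share reads, so the split among members is uncertain. Further genes than the naming rule gives are named throughout, chosen after their values were seen.

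**Figure D2:**
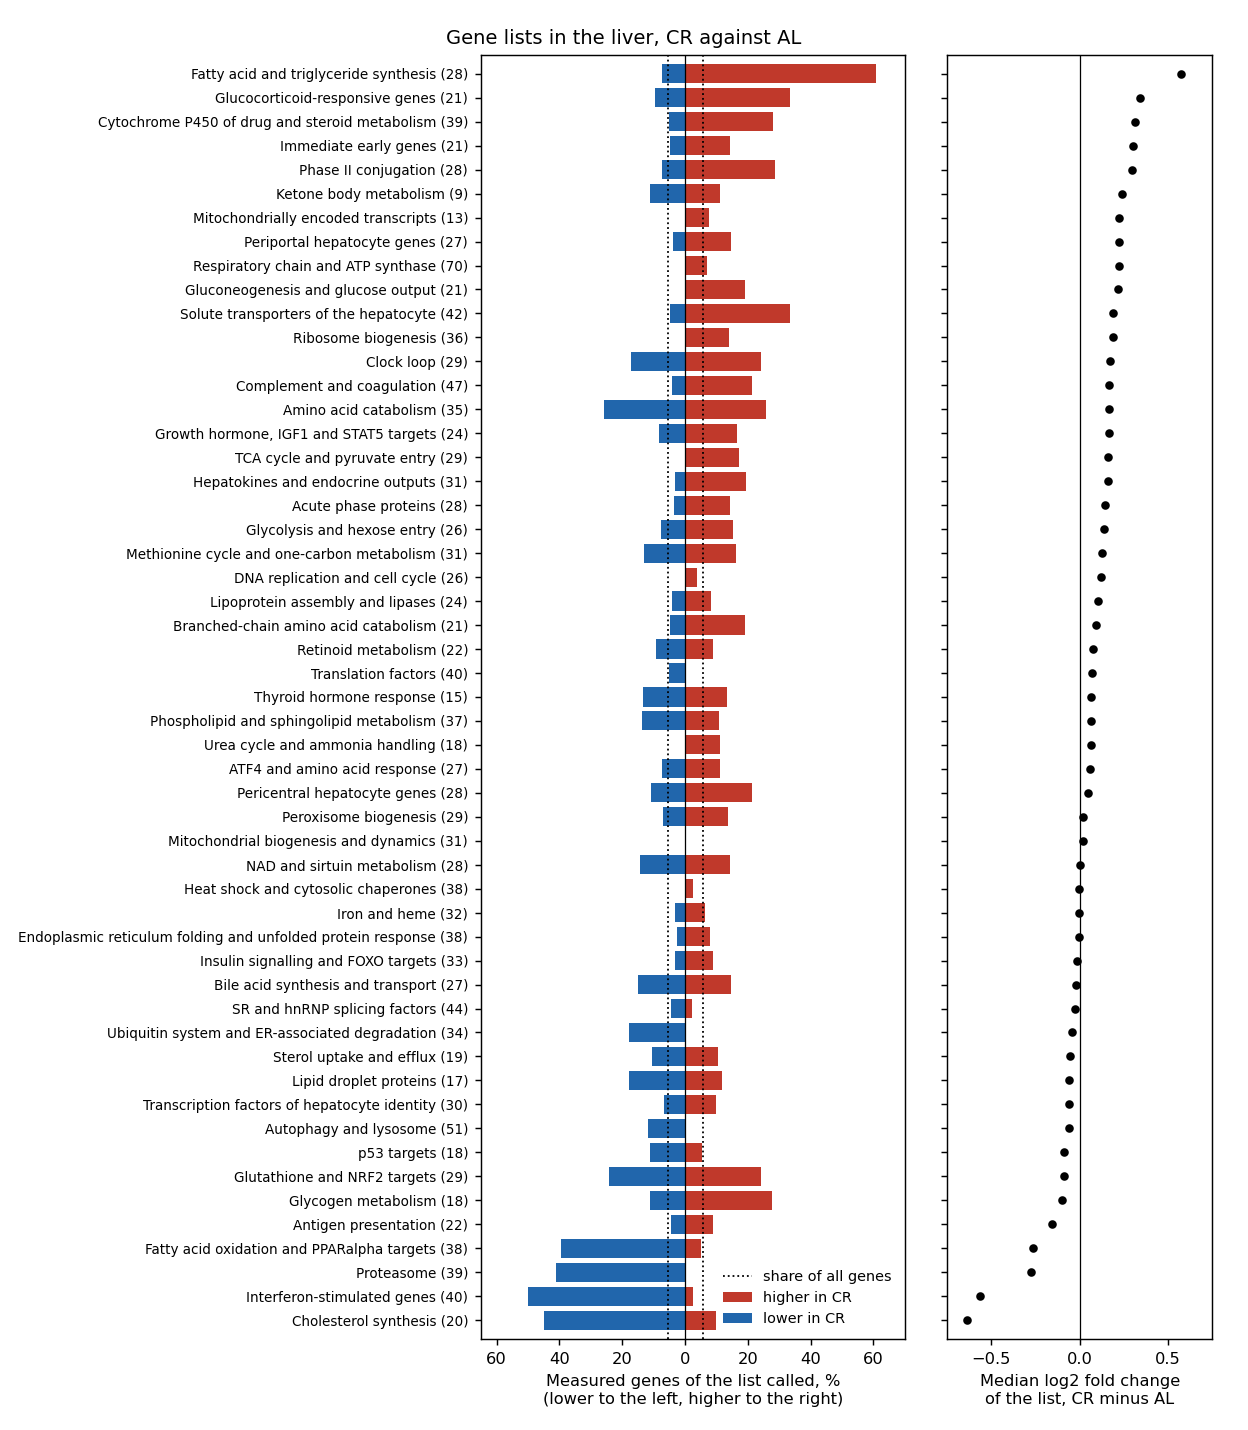
Share of the measured genes of each list called higher (red, right) or lower (blue, left) in CR, with the number measured in parentheses, and at right the median log2 fold change of the list. Dotted lines mark the shares of all genes, 5.79% higher and 5.37% lower. Lists are ordered by their median, from fatty acid and triglyceride synthesis at the top (17 of 28 higher) to the proteasome (16 of 39 lower), interferon-stimulated genes (20 of 40 lower) and cholesterol synthesis at the bottom.

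Some genes of glycogen storage rose, as did some genes of glycogen breakdown and glucose release. Of 18 measured genes of glycogen metabolism 5 rose and 2 fell, 38.9% called beside 11.2% of all genes. In that list 11 genes had a log2 fold change below 0, and the median was -0.10 beside -0.0038 for all genes. Gys2, the liver glycogen synthase (ENSMUSG00000030244, GRCm38 chromosome 6 from 142422613 to 142473109), rose by 0.91 (approximate SE 0.11, adjusted p = 5.9e-13), from about 136 to 256 CPM in the authors' deposited table. Pygl, the liver phosphorylase that breaks glycogen down, rose by 0.67 (adjusted p = 2.7e-07) by the authors' deposited table. The glycogen-targeting subunits of protein phosphatase 1, Ppp1r3b and Ppp1r3c, which activate the synthase, rose by 0.65 and 0.74, and Ugp2, which makes UDP-glucose, rose by 0.52 in the authors' deposited table. The synthase gene Gys2 and the phosphorylase gene Pygl were therefore both higher in the same samples, while the list as a whole was not. Stbd1, which ties glycogen to autophagy, fell with -0.57 in the authors' deposited table.

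The last step of glucose output rose, and enzymes of its first steps were not called. G6pc, the catalytic subunit of glucose-6-phosphatase (ENSMUSG00000078650, GRCm38 chromosome 11 from 101367561 to 101377903), rose by 1.84 (approximate SE 0.22, adjusted p = 4.1e-14), from about 73.7 to 263 CPM, and its partner Slc37a4, which carries glucose-6-phosphate into the endoplasmic reticulum, rose by 0.61 (adjusted p = 2.0e-04) by the authors' deposited table. Foxo3 and the CREB-induced kinase gene Sik1 were the other members that rose among 21 genes of glucose output, by 0.59 and 0.65 in the authors' deposited table. The enzymes upstream were not called: Pck1 had 0.36 (approximate SE 0.32, adjusted p = 0.56), Pcx -0.27 (adjusted p = 0.33) and Fbp1 0.22 (adjusted p = 0.33) by the authors' deposited table.

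Hexose entry likewise changed at some steps. Pklr, the liver pyruvate kinase at the end of glycolysis, rose by 1.47 (approximate SE 0.16, adjusted p = 3.9e-17), from about 144 to 396 CPM in the authors' deposited table. The fructose genes Khk (0.72) and Tkfc (0.68) rose too, and so did Pgk1 (0.35) and Mlxipl (0.63), which encodes the carbohydrate sensor ChREBP, in the authors' deposited table. The glucose transporter gene Slc2a2 was not called (0.15, adjusted p = 0.54) by the authors' deposited table. Ldha, which interconverts pyruvate and lactate, fell with -0.70 (adjusted p = 1.4e-06) and Aldoa, the aldolase of non-hepatic tissues, with -0.55 (adjusted p = 0.012) by the authors' deposited table. At the entry of pyruvate into the mitochondrion both Pdk4 (1.35, adjusted p = 4.8e-08) and Pdk1 (0.88, adjusted p = 4.2e-11), kinases that switch pyruvate dehydrogenase off, rose, while Pdk2 had -0.01 (adjusted p = 0.98) and Pdp2, a phosphatase of the same complex, rose by 0.31 in the authors' deposited table. Of 29 genes of the TCA cycle and pyruvate entry 5 rose and 0 fell, 17.2% called beside 11.2% of all genes. An approximate interval within 0.5 was found for 23 of the 29.

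Amino acid breakdown changed in both directions, with 9 of 35 genes higher and 9 lower, 51.4% called beside 11.2% of all genes. The rising side held Tat (0.67), which starts tyrosine breakdown, with Fah (0.42) further along that route, and Prodh (0.85, adjusted p = 9.6e-09), which starts proline oxidation, in the authors' deposited table. The falling side held the serine and glycine genes Sdsl (-1.51), Amt (-0.84) and Agxt (-0.55) and the cysteine and taurine genes Csad (-1.16) and Cdo1 (-0.46) by the authors' deposited table. Of 18 genes of urea and ammonia handling Gls2 (0.50) and Rhbg (0.84) rose by the authors' deposited table, 11.1% beside 11.2% of all genes. Cps1 (0.14, adjusted p = 0.69), Otc (0.29, adjusted p = 0.16), Ass1 (0.40, adjusted p = 0.22) and Arg1 (-0.25, adjusted p = 0.29) were not called in the authors' deposited table. Of 21 genes of branched-chain amino acid breakdown 4 rose, by 0.33 to 0.43, and Hsd17b10 fell (-0.63) by the authors' deposited table. The share called in that list was 23.8%.

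Along the kynurenine route from tryptophan to NAD, the first enzyme fell, and of the later ones some rose and others were not called. Tdo2, which opens the route, had -0.48 (approximate SE 0.15, adjusted p = 0.020), from about 1520 to 1090 CPM, whereas Afmid (0.47, adjusted p = 0.0022) and Haao (0.61, adjusted p = 3.7e-04) rose and Kmo had 0.23 (adjusted p = 0.26) by the authors' deposited table. Acmsd, the decarboxylase that diverts the pathway away from NAD (ENSMUSG00000026348, GRCm38 chromosome 1 from 127729413 to 127767978), rose most, by 1.52 (approximate SE 0.22, adjusted p = 1.2e-09), from about 14.1 to 40.5 CPM in the authors' deposited table. Further NAD genes that rose were the nicotinamide riboside kinase gene Nmrk1 (0.91, adjusted p = 2.1e-07) and Slc25a51 (0.77, adjusted p = 4.0e-09), which carries NAD into mitochondria, while Nampt, the main salvage enzyme, had 0.24 (adjusted p = 0.25) by the authors' deposited table. The aldehyde oxidase genes Aox3 (-1.12) and Aox1 (-0.84), which also oxidise nicotinamide derivatives, fell in the authors' deposited table. Over the 28 genes of NAD metabolism 4 rose and 4 fell, 28.6% called beside 11.2% of all genes, with a median of 0.00.

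Several enzymes between methionine and cysteine fell. Bhmt, which remethylates homocysteine with betaine (ENSMUSG00000074768, GRCm38 chromosome 13 from 93616675 to 93637961), had -1.30 (approximate SE 0.23, adjusted p = 1.3e-06), from about 6714 to 2717 CPM in the authors' deposited table. Mat1a, the liver enzyme that makes S-adenosylmethionine, had -0.77 (adjusted p = 5.0e-04), and the transsulfuration genes Cbs and Cth had -0.56 (adjusted p = 0.0011) and -0.58 (adjusted p = 0.0027) by the authors' deposited table. The isoenzyme Mat2a, typical of non-hepatic and growing cells, rose by 0.35 (adjusted p = 0.0070) by the authors' deposited table. Among methyltransferases, Gamt, which makes creatine, rose by 0.99 (adjusted p = 2.0e-08) and Pemt, which makes phosphatidylcholine, by 0.37 (adjusted p = 0.024), while Gnmt, which methylates glycine, had 0.16 (adjusted p = 0.68) by the authors' deposited table. Ahcy (0.27, adjusted p = 0.34) and Bhmt2 (-0.05, adjusted p = 0.87) were not called in the authors' deposited table. In the folate branch Aldh1l1, the cytosolic formyltetrahydrofolate dehydrogenase, rose by 0.76 (adjusted p = 1.4e-04) by the authors' deposited table. In all 5 of 31 genes of the list rose and 4 fell, 29.0% called beside 11.2% of all genes.

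**Figure D3:**
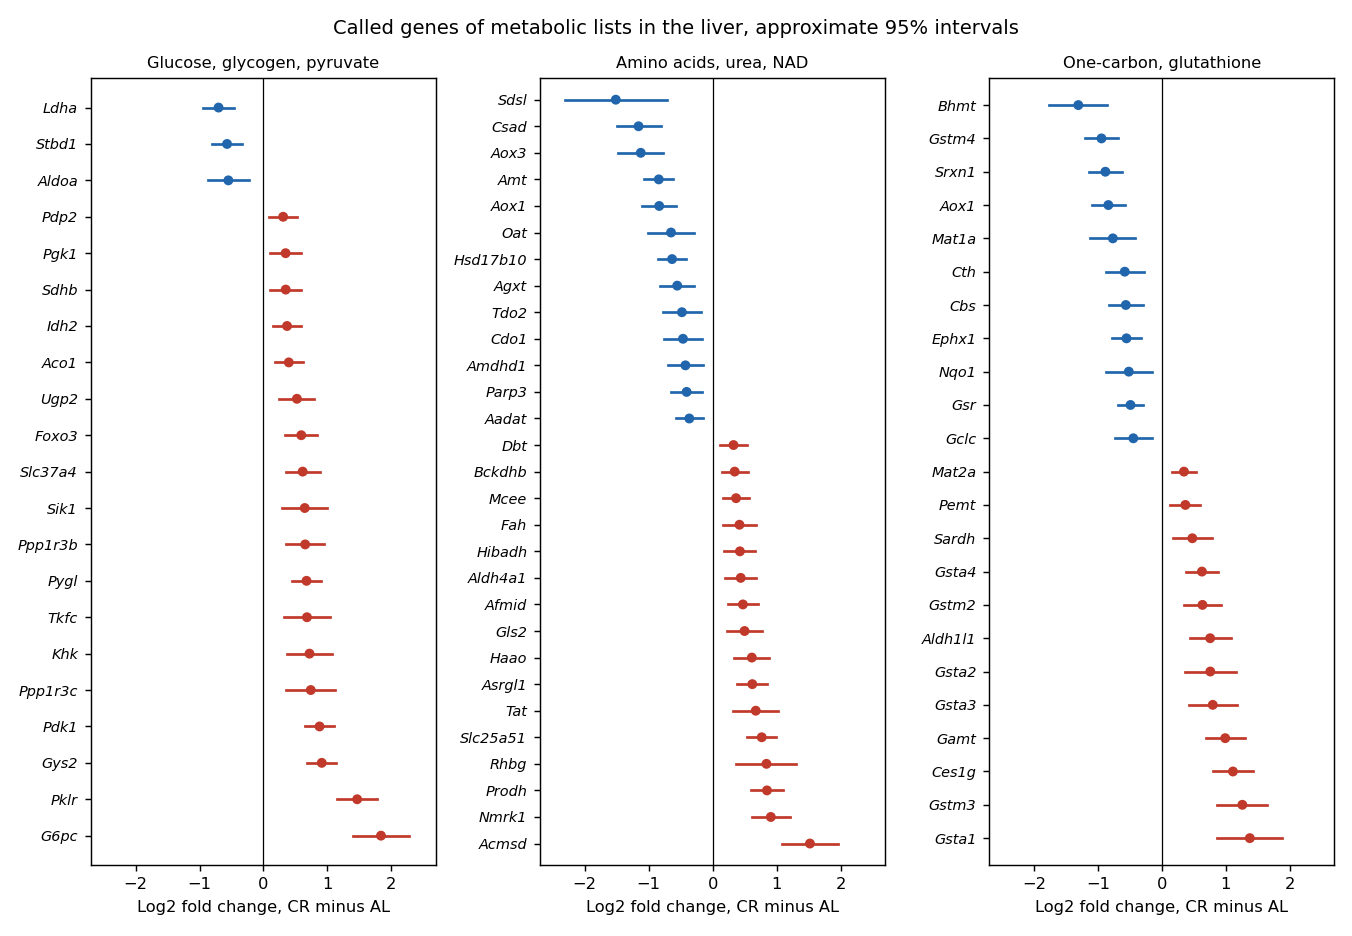
Log2 fold change (CR minus AL) with approximate 95% intervals for called genes of the lists of glucose, glycogen and pyruvate (left), amino acids, urea and NAD (centre), and one-carbon and glutathione metabolism (right). Red marks genes higher and blue genes lower in CR. G6pc (1.84), Acmsd (1.52) and Gsta1 (1.38) are at the high ends, and Ldha (-0.70), Sdsl (-1.51) and Bhmt (-1.30) at the low ends.

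Glutathione transferases mostly rose, and genes that make or recycle glutathione fell where they changed. Of 29 genes of glutathione metabolism and NRF2 targets 7 rose and 7 fell, 48.3% called beside 11.2% of all genes. The transferase genes Gsta1 (1.38), Gstm3 (1.26), Gsta3, Gsta2, Gstm2 and Gsta4 rose, with Gstm4 (-0.94) as the transferase that fell, in the authors' deposited table. Those that fell also held Srxn1 (-0.88, adjusted p = 2.6e-09), Gsr (-0.49, adjusted p = 3.6e-05), Gclc (-0.44, adjusted p = 0.030) and Nqo1 (-0.52, adjusted p = 0.048) by the authors' deposited table. The NRF2 gene itself, Nfe2l2, had -0.06 (adjusted p = 0.84) and its repressor Keap1 -0.22 (adjusted p = 0.33) by the authors' deposited table. In the same libraries 8 of 28 conjugation genes rose and 2 fell, 35.7% called. Among those that rose was Papss2 (0.72), which makes the sulfate donor, in the authors' deposited table. Among those that fell was Ugdh (-0.80), which makes UDP-glucuronic acid, in the authors' deposited table. Of 39 cytochrome P450 genes of drug and steroid metabolism 11 rose and 2 fell (Cyp2u1 and Cyp2c39), 33.3% called. Of all 66 genes with a Cyp symbol 19 rose and 8 fell, 40.9% called. The receptor genes that induce P450 genes, Nr1i3 (-0.09), Nr1i2 (0.31) and Ahr (-0.35), were not called in the authors' deposited table.

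Transporters of the hepatocyte membrane were mostly higher where they changed. Of 42 measured solute transporters and channels 14 rose and 2 fell, 38.1% called beside 11.2% of all genes, with a list median of 0.19. Aqp8, a water and peroxide channel of the canalicular and mitochondrial membranes (ENSMUSG00000030762, GRCm38 chromosome 7 from 123462291 to 123468004), rose by 1.21 (approximate SE 0.14, adjusted p = 2.1e-15), from about 61.6 to 142 CPM in the authors' deposited table. Metal carriers were among the risers, with Slc30a10, a manganese exporter, at 0.79 and Slc39a4, a zinc importer, at 0.76, as was the lysosomal carrier gene Slc46a3 at 0.94 in the authors' deposited table. The members that fell were 2 aquaporins, Aqp9 (-0.55), which lets glycerol into the hepatocyte, and Aqp4 (-0.60) by the authors' deposited table. The metallothionein gene Mt1 was low, at about 2.60 CPM in AL and 2.17 CPM in CR (log2 fold change -0.26, adjusted p = 0.76), in the authors' deposited table.

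Some lipid genes outside synthesis and oxidation made large changes. Retsat, which saturates retinol and lies among PPAR-responsive genes (ENSMUSG00000056666, GRCm38 chromosome 6 from 72598475 to 72608425), fell from about 1662 to 465 CPM, a log2 fold change of -1.84 (approximate SE 0.15, adjusted p = 6.2e-30) by the authors' deposited table. Apoa4, an apolipoprotein of triglyceride-rich particles, had -1.53 (adjusted p = 9.1e-06), and the droplet gene Plin4 had -1.48 (adjusted p = 1.7e-08) by the authors' deposited table. The lipase Pnpla2 fell with -0.52 while its inhibitor G0s2 rose by 1.21 and Hilpda, another inhibitor of it, by 0.73 in the authors' deposited table. In phospholipid synthesis the 2 choline kinases went opposite ways, Chka up by 1.07 (adjusted p = 2.9e-08) and Chkb down with -0.60 (adjusted p = 3.9e-06), and Lpcat3, which loads polyunsaturated chains into membranes, rose by 0.94 (adjusted p = 2.0e-11) by the authors' deposited table. The ketone exporter gene Slc16a6 rose by 0.99 (adjusted p = 5.2e-04) by the authors' deposited table.

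Enzymes that set the kind of bile acid made moved apart, and the first enzyme was not called. Cyp2c70, which makes the muricholic acids of mice, rose by 1.60 (approximate SE 0.18, adjusted p = 3.9e-17), from about 170 to 517 CPM in the authors' deposited table. Cyp8b1, which adds the hydroxyl group of cholic acid, fell with -0.61 (adjusted p = 0.0027), from about 537 to 353 CPM in the authors' deposited table. Cyp7a1, the first enzyme, had 0.21 (approximate SE 0.18, adjusted p = 0.54), and the bile acid receptor gene Nr1h4 (0.07), its target Nr0b2 (-0.25) and the export pump gene Abcb11 (-0.10) were not called in the authors' deposited table. Abcb4, which exports phospholipid into bile, fell with -0.64 (adjusted p = 4.2e-07) by the authors' deposited table. Over the list of 27 genes 4 rose and 4 fell, 29.6% called beside 11.2% of all genes.

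Many interferon-stimulated genes were lower in CR. These genes are switched on when interferons activate signal transducers that bind, with IRF9, the interferon-stimulated response element of their promoters. Of 40 measured members in the authors' deposited table, 20 fell and 1, Bst2, rose, 52.5% called beside 11.2% of all genes. A log2 fold change below 0 was found for 38, with a list median of -0.56 beside -0.0038 for all genes. The promoters of 4 members that fell are shown, RefSeq bases (GRCm38.p6) before the annotated start, read 5′ to 3′ on the gene's strand, because the element searched for stands in each. Capitals mark each match to GAAANNGAAA, the core of the element, on either strand.
Isg15, chr4:156200819-156200938, minus strand: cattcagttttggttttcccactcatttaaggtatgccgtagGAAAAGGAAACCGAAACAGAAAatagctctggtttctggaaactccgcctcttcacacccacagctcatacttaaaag
Irgm2, chr11:58214857-58214976, plus strand: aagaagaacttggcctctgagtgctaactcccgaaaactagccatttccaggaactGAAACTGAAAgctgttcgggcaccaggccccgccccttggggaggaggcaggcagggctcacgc
Rsad2, chr12:26456453-26456572, minus strand: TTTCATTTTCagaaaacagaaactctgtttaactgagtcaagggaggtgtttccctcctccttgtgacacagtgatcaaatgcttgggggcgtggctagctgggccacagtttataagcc
Ifit1, chr19:34640769-34640888, plus strand: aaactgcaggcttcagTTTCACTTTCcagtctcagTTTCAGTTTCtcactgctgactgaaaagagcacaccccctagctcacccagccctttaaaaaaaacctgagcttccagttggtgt

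The element was found in promoters of 19 of the 29 members that have a RefSeq window of 250 bases before to 50 after the start, and in 58.8% of their 34 windows against 3.44% of all 32851 windows. The share of windows was 58.8% for the 14 members with a window that fell and also 58.8% for the 15 that did not fall. This search was added after the values were seen, and a match is a description of these letters, not evidence of binding.

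Isg15, a ubiquitin-like modifier (ENSMUSG00000035692, GRCm38 chromosome 4 from 156199424 to 156200818), went from about 15.5 CPM in AL to 6.30 CPM in CR, a log2 fold change of -1.30 (approximate 95% interval -1.74 to -0.86, adjusted p = 5.9e-07) by the authors' deposited table. Usp18, the protease that removes it, had -1.28 (adjusted p = 9.8e-08), and Ifit1, which binds foreign capped RNA, had -0.94 (adjusted p = 2.9e-06) by the authors' deposited table. The change reached the signalling genes as well as the effectors. Irf9 had -0.63 (adjusted p = 5.9e-05) and Irf1 -0.51 (adjusted p = 0.018), while Stat2 (-0.26, adjusted p = 0.086) and Irf7 (-0.11, adjusted p = 0.79) were not called in the authors' deposited table. Among sensors of foreign RNA Ddx58 fell (-0.59, adjusted p = 1.9e-05) and Ifih1 was not called (-0.26, adjusted p = 0.12) by the authors' deposited table. The immunity-related GTPases, which respond to interferon gamma, fell as well: Irgm2 from about 119 to 58.1 CPM (-1.03, adjusted p = 1.8e-04), Igtp from about 101 to 56.2 CPM (-0.85, adjusted p = 0.0081) and Irgm1 from about 113 to 80.2 CPM (-0.49, adjusted p = 0.0040) by the authors' deposited table. All 11 Gbp genes were below 0, from -1.05 for Gbp2b to -0.32, and 5 fell. Antigen presentation had a share of calls near that of all genes, 13.6% beside 11.2%: of 22 genes Tap1 fell (-0.67) and H2-Q6 and H2-Q10 rose (0.60 and 0.42), and the immunoproteasome gene Psmb8 had 0.08 (adjusted p = 0.82) by the authors' deposited table.

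Macrophage markers lay slightly lower in the same comparison. Of 16 Kupffer cell and macrophage markers 15 were below 0, with a median of -0.20 and an approximate summed level of 349 CPM in AL and 302 CPM in CR, and Csf1r (-0.30, adjusted p = 0.51), Adgre1 (-0.14, adjusted p = 0.83) and Cd68 (-0.20, adjusted p = 0.71) were not called in the authors' deposited table. In bulk tissue fewer cells of a type and less RNA per cell cannot be told apart, and the part of these markers in the interferon result was not tested. In CR minus TR liver, which shares the CR libraries and in which 0.469% of 12593 genes were called, 0 of 39 members passed the threshold of the authors' edgeR test, with 3 at an unadjusted p under 0.05, and the median was -0.07. In CR minus AL iWAT, where 7.30% of 15295 genes were called, 1 of 39 members rose, 0 fell, and the median was 0.01, with a larger typical error (median approximate SE 0.318 over all iWAT genes). The difference between tissues was not tested, and iWAT came from 5 of the same AL mice and all 6 of the CR mice.

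**Figure D4:**
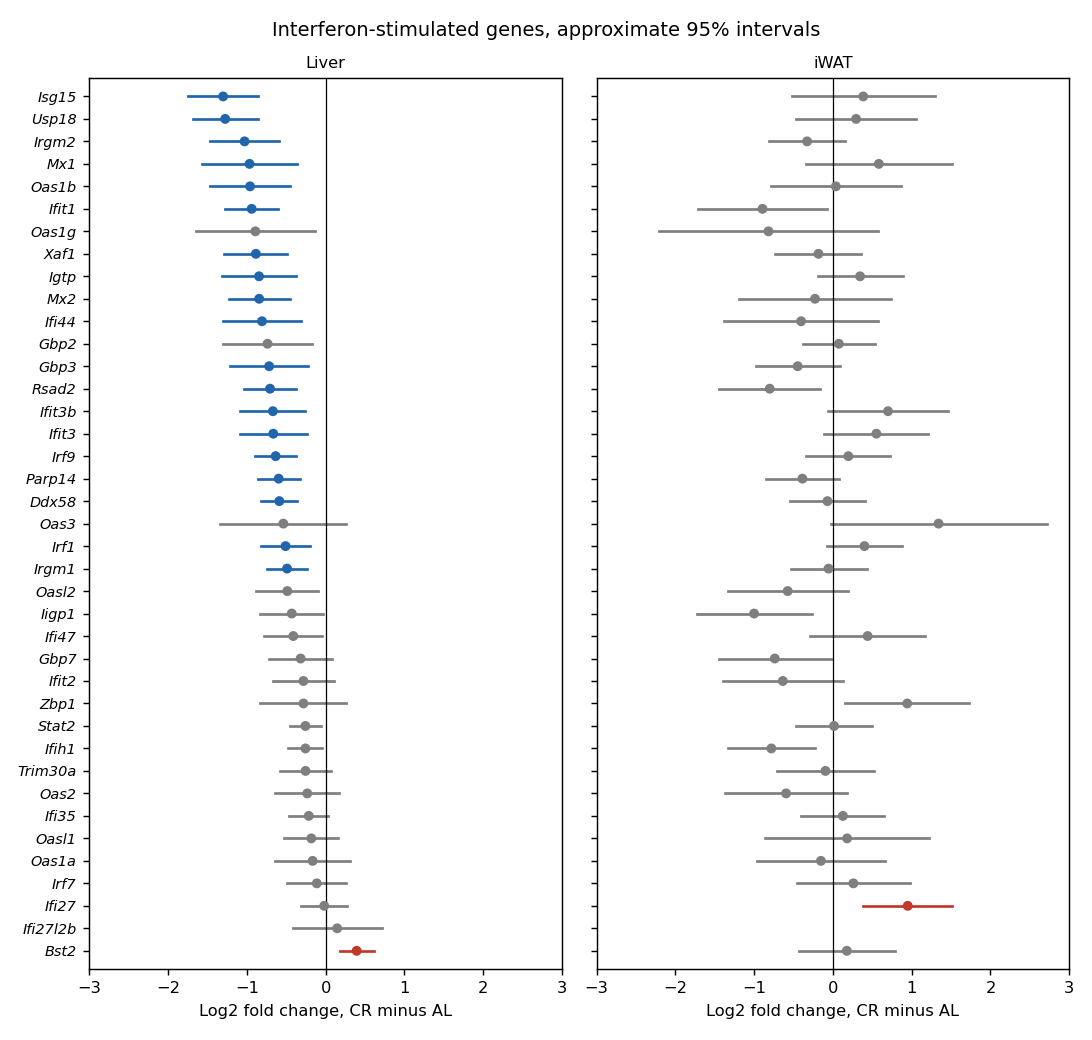
Log2 fold change (CR minus AL) of interferon-stimulated genes of the list in liver (left) and in iWAT (right), with approximate 95% intervals. Blue marks genes lower, red genes higher and grey genes not called. In liver most points lie left of 0, from Isg15 (-1.30) to Bst2 (0.39) at the ends, and in iWAT the points lie on both sides of 0.

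Besides the proteasome, with 16 of 39 subunits lower and 0 higher (41.0% called), some genes that feed it were lower. Of 34 genes of the ubiquitin system and endoplasmic reticulum-associated degradation 6 fell and 0 rose, 17.6% called beside 11.2% of all genes, and 24 had an approximate interval within 0.5. The ATPase gene Vcp (p97), which pulls ubiquitinated proteins out of membranes, had -0.42 (adjusted p = 0.0087), and both genes of its cofactor pair fell, Ufd1 with -0.44 (adjusted p = 3.6e-04) and Nploc4 with -0.39 (adjusted p = 0.0020), by the authors' deposited table. The proteasome-bound deubiquitinase gene Usp14 had -0.48 (adjusted p = 1.8e-04) and the shuttle factor gene Ubqln2 -0.62 (adjusted p = 4.6e-04) by the authors' deposited table. Sqstm1 (p62), an autophagy receptor and NRF2 target (ENSMUSG00000015837, GRCm38 chromosome 11 from 50199366 to 50210827), had -0.75 (adjusted p = 2.2e-07), from about 406 to 241 CPM in the authors' deposited table. The share of 51 autophagy and lysosome genes that was called, 11.8%, was near that of all genes, and 36 had an approximate interval within 0.5. The 6 that were called all fell, among them Gabarapl1 (-0.73) and Map1lc3a (-0.49), which coat autophagosomes, and the transcription factor gene Tfe3 (-0.44) by the authors' deposited table. Nfe2l1, which encodes the factor that induces proteasome genes, had 0.16 (adjusted p = 0.36) by the authors' deposited table.

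Chaperones gave few calls. Of 38 cytosolic chaperones 1, Dnaja4, rose and 0 fell, 2.63% called beside 11.2% of all genes. Of the 38, 29 had an approximate interval within 0.5, though Hsp90aa1 (-0.08, approximate SE 0.20) and Hspa8 (-0.08, approximate SE 0.27) were measured less precisely in the authors' deposited table. In the endoplasmic reticulum list 3 of 38 rose and 1 fell, 10.5% called beside 11.2% of all genes. The member that fell was Derl3 (-2.01, approximate SE 0.55), while Hspa5 had -0.33 (approximate SE 0.25) and Xbp1 -0.13 (approximate SE 0.13) by the authors' deposited table. Of 27 genes of the ATF4 amino acid response 18.5% were called, beside 11.2% of all genes. Atf3 (1.54), Ddit4 (1.07) and Cebpb (0.58) rose by the authors' deposited table. Atf5 (-1.20, adjusted p = 7.4e-12) and Fgf21 (-2.06) fell, and Atf4 itself had 0.12 (adjusted p = 0.55) by the authors' deposited table. Fgf21 was scarce, at about 1.12 CPM in AL and 0.268 CPM in CR (approximate SE 0.39), where a fitted fold is imprecise, in the authors' deposited table. The ATF4 targets Asns (-0.76, adjusted p = 0.19) and Trib3 (-0.33, adjusted p = 0.54) were not called in the authors' deposited table.

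Hormone-response lists changed in part. Of 21 glucocorticoid-responsive genes 7 rose and 2 fell, 42.9% called beside 11.2% of all genes, with a median of 0.34. Dusp1, a phosphatase of MAP kinases (ENSMUSG00000024190, GRCm38 chromosome 17 from 26505590 to 26562128), rose by 1.57 (approximate 95% interval 1.21 to 1.93, adjusted p = 7.3e-15), Tsc22d3 (GILZ) by 0.84 and Serpina6, the corticosteroid-binding globulin, by 0.70 in the authors' deposited table. Hsd11b1, which regenerates active glucocorticoid inside the cell, rose by 0.58 in the authors' deposited table. Fkbp5, a widely used reporter of the receptor, was not called, with -0.24 (approximate SE 0.14, adjusted p = 0.31), nor was the receptor gene Nr3c1 (0.22, adjusted p = 0.28), and Klf9 fell (-0.66) by the authors' deposited table. Dusp1 and Atf3 are also immediate early genes, of which 3 of 21 rose and 1 fell, 19.0% called beside 11.2% of all genes.

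Of 24 genes of growth hormone, IGF1 and STAT5 targets 4 rose and 2 fell, 25.0% of them beside 11.2% of all genes, with a median of 0.16. Igf1, the main circulating growth factor made by the liver, rose by 0.62 (adjusted p = 3.5e-04), from about 378 to 583 CPM, and Egfr by 1.15 (adjusted p = 0.019) by the authors' deposited table. Ghr (0.36, adjusted p = 0.085), Stat5b (0.02, adjusted p = 0.96), Socs2 (0.53, approximate SE 0.49) and Cish (-0.78, approximate SE 0.51) were not called, and the errors of the last 2 are wide, in the authors' deposited table. The binding protein genes Igfbp1 (1.38, approximate SE 0.53, adjusted p = 0.074) and Igfbp2 (-0.59, adjusted p = 0.065) were not called either by the authors' deposited table. Of 33 insulin and FOXO genes 3 rose and 1 fell, 12.1% of them, which is near the share of all genes. Grb10, an adaptor that inhibits the insulin receptor, rose by 1.06 and its relative Grb14 fell (-0.33), while Insr (-0.05), Irs1 (-0.18) and Irs2 (0.30) were not called in the authors' deposited table.

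Plasma protein genes that were called were more often higher than lower in CR. Of 47 complement and coagulation genes 10 rose, by 0.36 to 0.64, and 2 fell, 25.5% called beside 11.2% of all genes. Those that fell were Klkb1 (-0.42) and Cfd (-2.04, from about 1.66 to 0.402 CPM) by the authors' deposited table. Cfd is also an adipocyte gene, and the other adipocyte marker that fell was Adrb3 (-0.77). Among 28 acute phase genes the 3 orosomucoid genes rose, Orm1 by 0.82, Orm2 by 2.07 and Orm3 by 1.30, with Saa4 (0.58), and Lbp, the lipopolysaccharide-binding protein, fell with -0.73 (adjusted p = 1.7e-07) by the authors' deposited table. Crp (0.19, adjusted p = 0.34), Fga (0.37, adjusted p = 0.15) and Hpx (0.21, adjusted p = 0.47) were not called in the authors' deposited table. The share of the 28 acute phase genes called was 17.9%, beside 11.2% of all genes. Of 32 genes of iron and heme Hamp2 and Hebp1 rose and Slc48a1 fell, 9.4% called beside 11.2% of all genes. The main hepcidin gene Hamp had 0.40 (adjusted p = 0.071) by the authors' deposited table.

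The clock list changed in both directions. In that loop CLOCK and BMAL1 (Arntl) act through the E-box CACGTG, PER and CRY repress them, the REV-ERB factors (Nr1d1, Nr1d2) repress Arntl and Nfil3, and DBP acts through the D-box. Of 29 measured members 7 rose and 5 fell, 41.4% called beside 11.2% of all genes. Nfil3 rose by 1.02 (adjusted p = 2.0e-08), Arntl by 1.03 (adjusted p = 0.0031) and Cry1 by 1.97 (approximate 95% interval 1.65 to 2.29, adjusted p = 6.2e-30), in the authors' deposited table. Noct, a rhythmic phosphatase of NADP, rose by 1.33 (adjusted p = 7.5e-09) by the authors' deposited table. Ciart (-0.91), Bhlhe41 (-1.24) and Nr1d2 (-0.98) fell with Nr1d1 and Dbp, while Clock (-0.08), Tef (-0.24), Hlf (0.15) and Per1 (0.89, adjusted p = 0.051) were not called in the authors' deposited table. Genes with an E-box thus stood on both sides, as the following promoters show, one of a gene that fell and one of a gene that rose, with the E-box in capitals (RefSeq bases before the start, GRCm38.p6).
Ciart, chr3:95882229-95882348, minus strand: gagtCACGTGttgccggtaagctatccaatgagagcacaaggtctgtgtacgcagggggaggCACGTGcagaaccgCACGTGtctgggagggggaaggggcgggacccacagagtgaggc
Cry1, chr10:85185055-85185174, minus strand: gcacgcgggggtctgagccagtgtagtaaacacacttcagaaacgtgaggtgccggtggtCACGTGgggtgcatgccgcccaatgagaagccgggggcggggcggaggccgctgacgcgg

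Of the clock members 23 had a window, and the E-box stood in 18.2% of their 33 windows against 7.15% of all windows, the D-box TTATGTAA in 3.03% against 0.938%, and the nuclear receptor core site AGGTCA in 18.2% against 16.3%. For 15 genes of cholesterol synthesis with 18 windows the shares were 16.7% for the E-box, 0 for the D-box and 22.2% for the core site. Only a single exact spelling of the sterol regulatory element was searched for. It was found in 0 of these 18 windows and in 30 of all 32851 windows, 0.0913%. A spelling that rare cannot tell whether these promoters hold sterol regulatory elements. Both strands were searched, and a match to these letters is no record of binding.

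Transcripts were tested separately in the authors' deposited table of 26448 transcripts, of which 703 were called, 2.66% of those tested, 384 higher and 319 lower in CR. For 584 of them the gene was called in the same direction, for 10 it was called in the opposite direction, for 106 it was not called, and 3 had no gene in the gene table. Of the 1409 called genes 927 had no called transcript. The transcripts of interest are those whose gene did not move: the gene's adjusted p was at least 0.05 and its approximate 95% interval lay within 0.5 log2 units of 0. Of 15397 transcripts of such genes 66, from 65 genes, were called, 0.429% of them, with 35 higher and 31 lower. They were usually minor forms, with a median of 4.58% of the gene's reads (the transcript's mean CPM over the gene's) against 84.1% for the other called transcripts. The rule itself favours this contrast, because a called form with most of the reads would tend to move its gene out of the margin. Of the 66, 51 are annotated as protein coding and 11 as targets of nonsense-mediated decay.

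**Figure D5:**
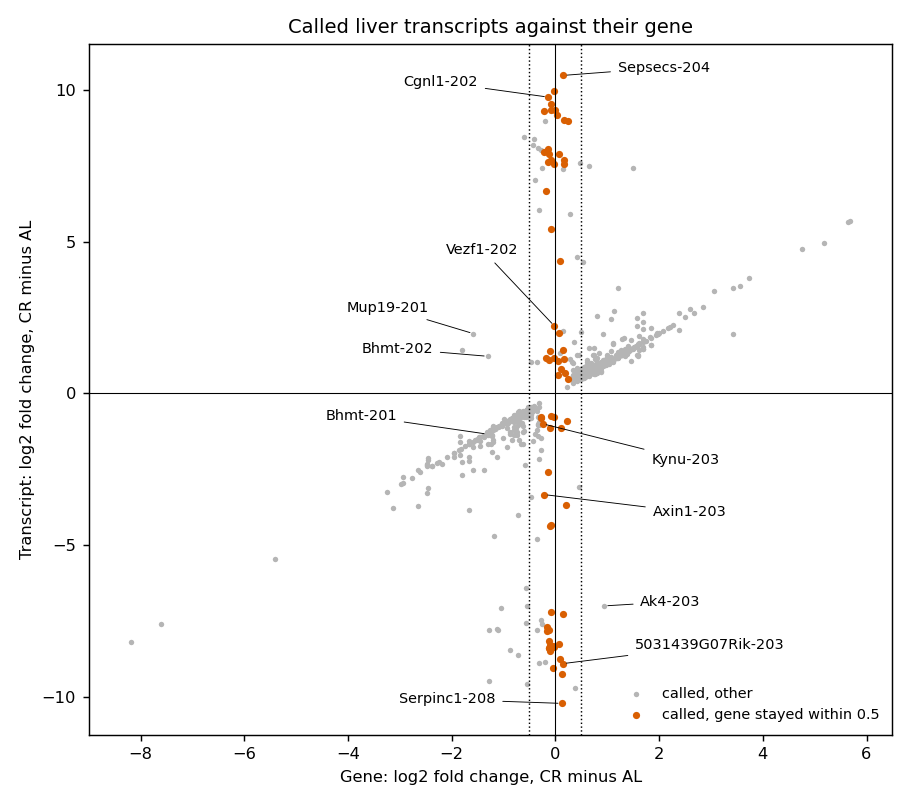
Log2 fold change of each called transcript against that of its gene (both CR minus AL). Orange points are the 66 called transcripts of genes that stayed within 0.5 (dotted lines), grey points the other called transcripts. Most grey points follow the gene, while the orange points run from below -10 to above 10 at genes near 0, and Bhmt-202, Mup19-201 and Ak4-203 lie in quadrants opposite to their genes.

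In 39 of the 66 the fit put one diet near 0, with a size of at least 5 log2 units, and such fitted folds depend on the prior count and give no bound on the change. These transcripts were scarce, with log2 mean CPM between -1.09 and 2.80 and a median of 3.59% of the gene's reads. Among the 12 with the smallest adjusted p, Cgnl1-202 (about 4.63 CPM in CR, adjusted p = 2.0e-06), Rrp1-206 (3.45 CPM in CR), Sepsecs-204 (7.52 CPM in CR), Ino80d-205 (5.25 CPM in CR), Ubp1-202 (3.49 CPM in CR) and Rprd2-201 (3.37 CPM in CR) were near 0 in AL in the authors' deposited table. Serpinc1-208 (about 6.29 CPM in AL, adjusted p = 5.1e-06), 5031439G07Rik-203 (2.62 CPM in AL), Ube2d3-204 (1.88 CPM in AL) and Zkscan1-204 (1.79 CPM in AL) were near 0 in CR in the authors' deposited table. Without values per library it cannot be told whether such a form was present in all 6 mice of a diet or in 1 of them. Snap23-201 (about 2.83 and 0.472 CPM, log2 fold change -2.58) and Kynu-203 were the 2 of the 12 with both diets above 0 in the authors' deposited table.

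Kynu-203 was the most abundant of the 12. Kynu encodes kynureninase, which splits kynurenine and hydroxykynurenine, and so belongs to the tryptophan route above. The transcript carried 24.8% of the gene's reads and went from about 37.0 to 18.4 CPM, a log2 fold change of -1.01 (approximate SE 0.18, adjusted p = 9.9e-06), while the main form Kynu-201, with 73.2% of the reads, had -0.01 (approximate SE 0.16) and the gene -0.24 (approximate 95% interval -0.48 to -0.01, adjusted p = 0.19) by the authors' deposited table.

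Among called transcripts of steady genes, 23 had a size under 5 and a log2 mean CPM of at least 1, with 13 higher and 10 lower, a choice made after the values were seen. Several encode metabolic or regulatory proteins of the liver. Gckr-202, with 34.4% of its gene's reads, rose by 0.59 (adjusted p = 0.020), from about 66.8 to 101 CPM, while the gene had 0.06 in the authors' deposited table. Cyp27a1-202, a retained-intron form with 1.49% of its gene's reads, rose by 1.17 (adjusted p = 0.015), beside a gene at -0.02 in the authors' deposited table. Cyp3a25-203, annotated for nonsense-mediated decay, fell from about 161 to 94.6 CPM (-0.76, adjusted p = 0.0013), beside a gene at -0.09 in the authors' deposited table. Qsox1-201 rose by 0.67 (adjusted p = 0.0021), Furin-202 by 1.10 (adjusted p = 0.020) and Aldh7a1-208 by 0.47 (adjusted p = 0.021) by the authors' deposited table. Zranb2-203, with 53.6% of its gene's reads, fell with -0.81 (adjusted p = 0.0058) by the authors' deposited table. The gene Zranb2 lay in the same direction, at -0.27 (approximate 95% interval -0.48 to -0.05, adjusted p = 0.099) by the authors' deposited table. An interval within the margin can thus leave out 0.

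The sequences that set some of these forms apart are coding exons whose lengths are multiples of 3, so the reading frame goes on without them. The exon is in capitals between up to 20 bases of its neighbours, in the transcript sense from the GENCODE M21 transcripts (GRCm38).
Cgnl1 exon 8 of Cgnl1-201, absent from Cgnl1-202, 213 bases, chr9:71705148-71705360, minus strand: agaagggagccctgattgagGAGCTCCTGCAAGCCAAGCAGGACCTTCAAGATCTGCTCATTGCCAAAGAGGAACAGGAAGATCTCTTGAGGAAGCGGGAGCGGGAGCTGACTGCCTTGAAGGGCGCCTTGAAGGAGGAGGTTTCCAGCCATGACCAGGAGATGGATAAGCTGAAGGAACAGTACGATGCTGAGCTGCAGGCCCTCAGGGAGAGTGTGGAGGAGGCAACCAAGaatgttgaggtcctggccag
Ndrg2 exon 3 of Ndrg2-201, absent from Ndrg2-202, 42 bases, chr14:51911086-51911127, minus strand: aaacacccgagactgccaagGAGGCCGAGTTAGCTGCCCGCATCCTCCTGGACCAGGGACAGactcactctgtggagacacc
Ubp1 exon 9 of Ubp1-202, absent from Ubp1-201, 108 bases, chr9:113959376-113959483, plus strand: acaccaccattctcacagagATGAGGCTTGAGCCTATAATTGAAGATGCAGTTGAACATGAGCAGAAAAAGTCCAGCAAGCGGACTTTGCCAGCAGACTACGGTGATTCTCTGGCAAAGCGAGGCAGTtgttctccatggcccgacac

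For Ndrg2, a stress- and nutrient-responsive gene of liver, brain and muscle, the form without the 42 bases fell and the form with them was not called. Ndrg2-202 went from about 78.1 to 41.2 CPM (log2 fold change -0.92, approximate SE 0.22, adjusted p = 0.0025), and Ndrg2-201, with 95.3% of the reads, had 0.26 (approximate SE 0.12, adjusted p = 0.36) by the authors' deposited table. Cgnl1, a cell junction protein, and Ubp1, a transcription factor of the grainyhead family, had a rare form that was higher in CR, without the exon for Cgnl1 and with it for Ubp1, and the main forms Cgnl1-201 (-0.22) and Ubp1-201 (0.00) were not called in the authors' deposited table. These pairs differ elsewhere as well in some cases, so the exon shown need not be the sequence that the reads distinguished.

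In 7 of 6571 genes with at least 2 transcripts in the table, called transcripts went in opposite directions. Bhmt was the most abundant: its coding form Bhmt-201 fell from about 6710 to 2632 CPM (-1.35, adjusted p = 1.1e-09), and Bhmt-202, a retained-intron form with 1.13% of the reads, rose from about 32.1 to 74.7 CPM (1.22, adjusted p = 0.0054) by the authors' deposited table. In Trim24, a repressor of retinoic acid signalling, Trim24-203 had -0.78 and the rare Trim24-201 was near 0 in AL, and in Ak4 the main form rose by 0.94 and a form of 0.414% of the reads was near 0 in CR in the authors' deposited table. In Arhgap26 and 4931406P16Rik, 1 form rose (1.26 and 1.40) and another fell (-3.10 and -1.15), and the gene 4931406P16Rik had -0.11 (adjusted p = 0.73) by the authors' deposited table. In Mup19 and Mup14 the main forms fell (-2.53 and -2.25) and a minor form rose (1.97 and 1.43) by the authors' deposited table, in a family whose members share reads.

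Some further lists had shares of called genes below the 11.2% of all genes. Of 31 genes of mitochondrial biogenesis and dynamics 0 were called by the authors' edgeR test, with 5 at an unadjusted p under 0.05, and 24 had an approximate interval within 0.5, with Ppargc1a at 0.17 (approximate SE 0.22) and Tfam at -0.07 (approximate SE 0.10) by the authors' deposited table. Of 40 translation factors 2 fell, Eif4g3 (-0.38) and Eif5 (-0.33), and 36 lay within 0.5; of 44 splicing factors Hnrnpc rose (0.42), Ptbp2 (-0.44) and Rbm3 (-0.38) fell, and 39 lay within 0.5, in the authors' deposited table. Others were near or above that share. In ribosome biogenesis 5 of 36 genes, 13.9%, were higher, led by Nolc1 (0.73), and 0 lower, while Myc had -0.94 (approximate SE 0.40, adjusted p = 0.12) by the authors' deposited table. Zonation markers of the lobule changed on both sides, 6 higher and 3 lower of 28 pericentral genes (32.1% called) and 4 higher and 1 lower of 27 periportal genes (18.5% called), and the pericentral stem-cell receptor gene Lgr5 fell with -1.11 (adjusted p = 3.1e-06) while Glul (0.04) and Axin2 (-0.24) were not called in the authors' deposited table.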

How the data were processed

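Per the labels' protocols, total RNA of frozen tissue was taken with Trizol and made into Illumina TruSeq libraries. Per the submitters' processing notes, bcl2fastq 2.20, STAR 2.5.3a and RSEM (version not given in the sources used here) were used with GRCm38.p5. Per the file headers, the authors fitted edgeR generalized linear models, and the deposited log2 values are the fold change and the mean CPM. The deposited score is the likelihood-ratio statistic, and the deposited p-value columns are the p and its FDR, used here as the adjusted p (threshold 0.05, 2-sided, over all features of a table). The authors' edgeR version, filter and normalization are given in no source used here.

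A chi-square tail of the statistic gave the deposited p to within 2.9e-09, and a Benjamini-Hochberg adjustment lay within 2.6e-04 (genes) and 0.0013 (transcripts) of the FDR. The calculations of the derived SE, adjustments and transcript rules were run on simulated data. That run cannot tell how close the approximate SE lies to the true error of the deposited fold changes. All identifiers matched GENCODE M21. Nothing says that the animals were housed separately, so p-values measure the spread between these samples. The planned models of counts were replaced by the authors' results, because no count table was used here.

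The members and gene lists were chosen with earlier results of these data known. Named genes are the 10 most raised and 10 most lowered called genes whose log2 mean CPM is 2 or more (without predicted genes), up to 3 members per list and direction with the smallest FDR, and 13 genes named whatever their values (of which Mt2 is not in the table used). Named transcripts are the 12 with the smallest FDR and a size of at least 1 whose gene stayed within 0.5. Alternatives were other FDR thresholds, a level filter, Holm adjustment, centring and other margins. Some members are counted in the lists but are not reported here.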

Additional observations from a re-analysis of the deposited data

How the results depend on the processing

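The number of called genes, 1409, was 1890 at an FDR of 0.1, 1313 at a log2 mean CPM of 1 or more, 822 at an FDR of 0.01, 738 with at least 1.5-fold and 357 with Holm adjustment. For transcripts the 703 calls became 445 at an FDR of 0.01 and 191 with Holm adjustment. The 66 called transcripts of steady genes became 39 at a transcript FDR of 0.01, 34 at a log2 mean CPM of 1 or more, 14 with a margin of 0.3, 102 with a margin of 1, 106 with the gene's FDR alone, and 27 without forms near 0 in 1 diet, an alternative chosen after seeing the data. Genes with opposite transcripts went from 7 to 1, Bhmt, at a transcript FDR of 0.01. Lists kept their count within 1.5 times in 38 of 58 cases at an FDR of 0.01, 51 of 58 at 0.1 and 56 of 58 with the level filter, and centring moved no list's median by more than its spread. No paired analysis was possible because the tables hold no values per library and the CR and AL livers share no animal numbers. For the same reason no library could be left out, and the precision that depth sets is known only through the approximate SE.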

Other observations

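Large symbol families differed in how many members were called, and the differences between families were not tested. Of 228 Slc genes 32 rose and 7 fell (17.1% called), with a median log2 fold change of 0.04. Of 315 Zfp genes 3 rose and 4 fell (2.22% called). Of 51 Rps genes 0 passed the threshold of the authors' edgeR test, with 14 at an unadjusted p under 0.05, and their median was 0.22. Of 60 Rpl genes 6 rose and 0 fell, a smaller share than the 11.2% of all genes. The Rpl median was 0.27, close to that of the Rps genes. Of 32 Trim genes 3 rose and 8 fell (34.4% called). Of 12 Parp genes 5 fell and 0 rose (41.7% called), among them Parp14 (-0.60), which is also on the interferon list.

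By annotation, 16.3% of 166 antisense genes were called, 10 higher and 17 lower, beside 11.0% of 11804 protein-coding genes. The kit is not stated to mark strand in the sources used here, so antisense reads and those of the partner gene may not be told apart. Among transcripts 35 of 3757 retained-intron forms were called (0.932%), 18 higher and 17 lower. Of 19043 protein-coding forms 604 were called (3.17%), beside 2.66% of all transcripts. Neat1, a nuclear long noncoding RNA, fell with -0.60 (adjusted p = 0.021), and Malat1 beside it had -0.21 (adjusted p = 0.68), by the authors' deposited table.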
